A study of Rattus norvegicus with 4 samples.

Results

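Hspa5, Hsp90b1 and Calr encode 3 abundant chaperones of the endoplasmic reticulum (ER), and their transcripts were followed in MMQ cells, a prolactin-secreting rat pituitary tumour cell line. The 3 genes were taken by their Ensembl IDs, ENSRNOG00000018294 for Hspa5, ENSRNOG00000026963 for Hsp90b1 and ENSRNOG00000003029 for Calr, out of 33832 IDs in the deposited table. All 3 were found, and all 3 were among the 14056 IDs that were tested. The cells had been given UNC9994 at 15 µM, a dopamine D2 receptor ligand that favours β-arrestin over G protein signalling, or its solvent DMSO, for 12 h or 24 h. There were thus 4 groups, DMSO 12 h, DMSO 24 h, UNC9994 12 h and UNC9994 24 h, each with 1 library of polyadenylated RNA and no replicate. All 4 groups were the same line in the same medium with fetal bovine and horse serum, with no genetic change named in the labels. MMQ is a single tumour line, and nothing in the labels says whether the cultures were set up on the same day. The identity of the cells could not be checked against lactotroph markers, because no gene other than these 3 could be tied to an ID, and such markers are not analysed here.

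Secreted and membrane proteins fold in the ER. Hspa5 (BiP, GRP78) is the Hsp70 of this compartment: it holds unfolded chains, keeps the translocation pore closed and binds the stress sensors of the unfolded protein response while the folding load is low. Hsp90b1 (GRP94) is the ER member of the Hsp90 family and finishes the folding of a narrower set of clients, and Calr (calreticulin) binds sugar chains on new glycoproteins and stores calcium. In cells that secrete hormones all 3 are made at high levels, and ER stress raises their transcription together through the ER stress response element (ERSE), where the factors NF-Y and ATF6 bind.

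The promoters are shown for the ERSE that they carry. ER chaperone genes are those from which this element is known, so its presence here follows from the kind of gene chosen and is a description. The sequences are the 250 bases before the first listed RefSeq start of each gene in the rat build GRCr8, 5′ to 3′ on the gene's strand. These are chr3:38452766-38453015 (plus strand) for Hspa5, chr7:23012294-23012543 (minus strand) for Hsp90b1 and chr19:40213117-40213366 (plus strand) for Calr, and the deposited expression values rest on another build, Rnor_6.0. Capitals mark every CCAAT or its reverse complement ATTGG, and every full ERSE.
Hspa5: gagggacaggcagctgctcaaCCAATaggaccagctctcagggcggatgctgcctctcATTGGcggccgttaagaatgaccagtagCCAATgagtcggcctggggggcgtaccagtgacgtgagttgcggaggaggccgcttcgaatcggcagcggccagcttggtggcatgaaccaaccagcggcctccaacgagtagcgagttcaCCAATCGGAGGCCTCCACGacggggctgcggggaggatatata
Hsp90b1: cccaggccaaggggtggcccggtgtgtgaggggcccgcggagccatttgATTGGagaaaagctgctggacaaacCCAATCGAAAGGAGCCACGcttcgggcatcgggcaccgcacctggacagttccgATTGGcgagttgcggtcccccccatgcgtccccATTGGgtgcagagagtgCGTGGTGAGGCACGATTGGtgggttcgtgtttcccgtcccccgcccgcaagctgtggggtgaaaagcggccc
Calr: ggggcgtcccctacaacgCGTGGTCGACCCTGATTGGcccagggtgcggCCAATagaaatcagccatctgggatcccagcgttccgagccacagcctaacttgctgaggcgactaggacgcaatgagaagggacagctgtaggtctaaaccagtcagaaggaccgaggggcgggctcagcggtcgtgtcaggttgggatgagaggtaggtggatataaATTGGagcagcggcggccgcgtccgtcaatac

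Each of the 3 promoters held the exact ERSE (CCAAT, then 9 bases of any kind, then CCACG), searched on both strands. In Hspa5 it stood from 43 to 25 bases before the start on the gene's own strand (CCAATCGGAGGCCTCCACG). Hsp90b1 had 2 matches, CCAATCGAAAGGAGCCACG from 176 to 158 bases before the start and, in the opposite orientation, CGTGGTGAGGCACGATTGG from 72 to 54 bases. In Calr 1 match lay far from the start, from 232 to 214 bases, in the opposite orientation (CGTGGTCGACCCTGATTGG). The motif was rare: 21 of 27457 promoter windows of this length held it (0.0765%), and only the Hsp90b1 window had 2 matches. The share of G and C was 61.6% in the Hspa5 window, 64.8% in Hsp90b1 and 60% in Calr. The median over all windows was 52.0%, and the motif shares were not adjusted for this difference. Windows were 1 per gene, the first listed, so other starts of a gene were not searched. Among the 18 other genes with the motif, 6 were on the ER, secretory and cell type gene lists, on which 125 genes beside these 3 had a window: Canx (the membrane-bound partner of calreticulin), Creld2, Derl3 (ER-associated degradation), Dnajc3 (a co-chaperone of BiP), Ero1b (disulfide formation) and Xbp1 (a factor of the unfolded protein response), whose levels are not analysed here. The lists were made to hold ER genes, the kind from which this element is known, so the 6 are a description too. The 12 genes not on the lists were Ankmy2, Birc5, Calr4, Foxd4, Hnrnpa3, Pan2, Ppm1l, Zfand2a, Zfp57 and 3 loci without a gene name.

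The shorter CCAAT box, which forms part of each ERSE, occurred 4 times in Hspa5, 5 times in Hsp90b1 and 3 times in Calr. At least 3 such boxes were present in 2.73% of all windows, and at least 1 in 34.3%. Allowing 1 mismatch in the fixed letters gave 4 ERSE matches in Hsp90b1, 2 of them the exact ones, and no further match in Hspa5 or Calr, against at least 1 match in 1.36% of windows. The related elements ERSE-II (ATTGG, 1 base of any kind, CCACG; in 0.0437% of windows) and UPRE (TGACGTGG, in 0.55%) were not found in these windows of the 3 genes. Calr alone had the letters TATAAA, from 37 to 32 bases before the start, a motif present in 13.1% of windows. The Hspa5 window ends in tatata, and a match crossing the edge of a window would not have been counted. These matches describe the sequence only, since no binding was measured.

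**Figure D1:**
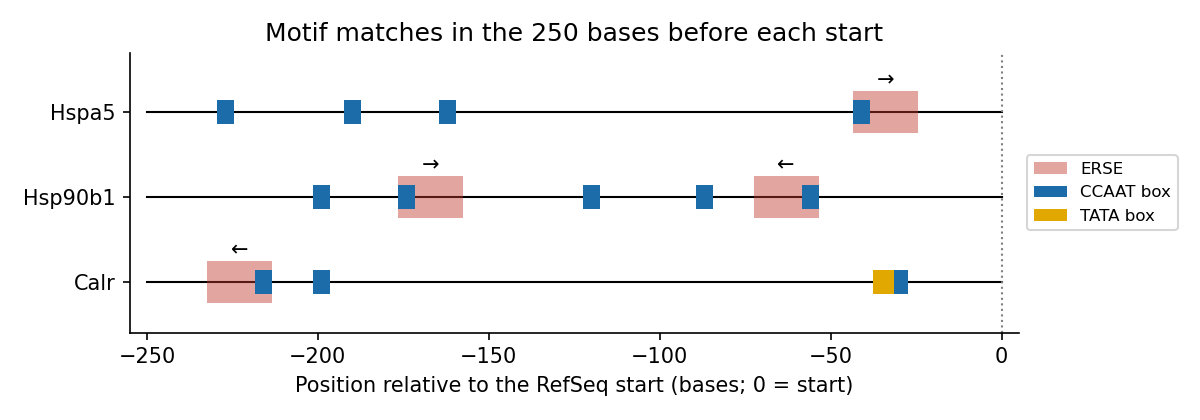
Matches to the ERSE (red, the arrow gives its orientation), the CCAAT box (blue) and the TATA box TATAAA (yellow) in the 250 bases before the RefSeq start of each gene, with the position in bases on the x axis. The ERSE lies 43 to 25 bases before the start in Hspa5, at 2 places in Hsp90b1 and 232 to 214 bases before the start in Calr.

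The levels of the genes are given as FPKM, that is, per kilobase of gene model and scaled to library size, which allows levels to be compared between genes. Calr was the most abundant of the 3 in each library, with a mean of 412 FPKM over the 4 libraries and rank 154 among all IDs. Hspa5 had a mean of 300 FPKM and rank 231, and Hsp90b1 a mean of 274 FPKM and rank 259. Each value rested on many reads. The whole read numbers recovered from the FPKM were 14497 to 17740 for Hspa5, 15444 to 20090 for Hsp90b1 and 14834 to 16379 for Calr. All IDs together had 17433867 to 21728374 recovered reads per library. Counting error was therefore small, but the spread between cultures of the same group is unknown for all 4 groups.

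Hsp90b1 fell with UNC9994, by the test of the change common to both times. Its level was 301 FPKM in DMSO at 12 h, 354 FPKM in DMSO at 24 h, 216 FPKM in UNC9994 at 12 h and 225 FPKM in UNC9994 at 24 h. The UNC9994 libraries lay close together and below both DMSO libraries. At 12 h the level was 1.39-fold lower than in vehicle (95% counting interval 1.36 to 1.42), and at 24 h it was 1.57-fold lower (1.54 to 1.61). The change common to both times was -0.56 ± 0.10 on the log2(FPKM + 0.5) scale (SE, 4 libraries; limma adjusted p = 0.032, two-sided). By this test 1 of the 3 chaperones was lower, beside 5.16% of all tested IDs lower and 3.41% higher (8.57% in either direction). The adjusted p was 0.15 with no filter on low values and 0.09 with no variance trend, and the call was lost without any 1 of the 4 libraries (0.067 to 0.11, fitted with no time term, which gave 0.038 with all 4 libraries). Hsp90b1 kept its direction in all 14 alternative fits, which most of them could not change because both UNC9994 values lay below both DMSO values. The adjusted p was past the threshold of 0.05 in 8 of the 14, with a range of 0.01 to 0.15.

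Hspa5 was lower in both UNC9994 libraries than in both DMSO libraries, but its difference did not pass the threshold. The level was 294 FPKM in DMSO at 12 h and 390 FPKM in DMSO at 24 h, against 251 FPKM in UNC9994 at 12 h and 263 FPKM in UNC9994 at 24 h. The DMSO 24 h library stood above the other 3, which lay between 251 and 294 FPKM. The UNC9994 value was 1.17-fold lower than vehicle at 12 h (95% counting interval 1.14 to 1.20) and 1.48-fold lower at 24 h (1.45 to 1.51). On the log2(FPKM + 0.5) scale the common difference was -0.40 ± 0.12 (SE, 4 libraries; limma adjusted p = 0.097, unadjusted p = 0.017), with a 95% interval of -0.69 to -0.10 before adjustment. The 14 alternative fits gave adjusted p-values from 0.054 to 0.34. The size depended on which DMSO library was used: with no time term, the log2 difference was -0.19 without the DMSO 24 h library (adjusted p = 0.32) and -0.60 without the DMSO 12 h library (adjusted p = 0.087), and set against DMSO at 12 h the UNC9994 24 h level was 1.12-fold lower.

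Calr showed the smallest common difference of the 3 genes, although at 12 h its ratio was nearly that of Hspa5 (0.852 and 0.855). It stood at 426 FPKM in DMSO at 12 h, 448 FPKM in DMSO at 24 h, 363 FPKM in UNC9994 at 12 h and 409 FPKM in UNC9994 at 24 h. The groups did not overlap, yet the UNC9994 24 h library was within 4.14% of the DMSO 12 h library. The level was 1.17-fold lower at 12 h (95% counting interval 1.15 to 1.20) and 1.10-fold lower at 24 h (1.07 to 1.12). The common log2 difference was -0.18 ± 0.10 (SE, 4 libraries; limma adjusted p = 0.31), with a 95% interval of -0.44 to 0.08 before adjustment. An equal level and a fall of the size measured for Hspa5 both lie inside this interval. Without the UNC9994 12 h library, and with no time term, the log2 difference was -0.10 (adjusted p = 0.71).

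**Figure D2:**
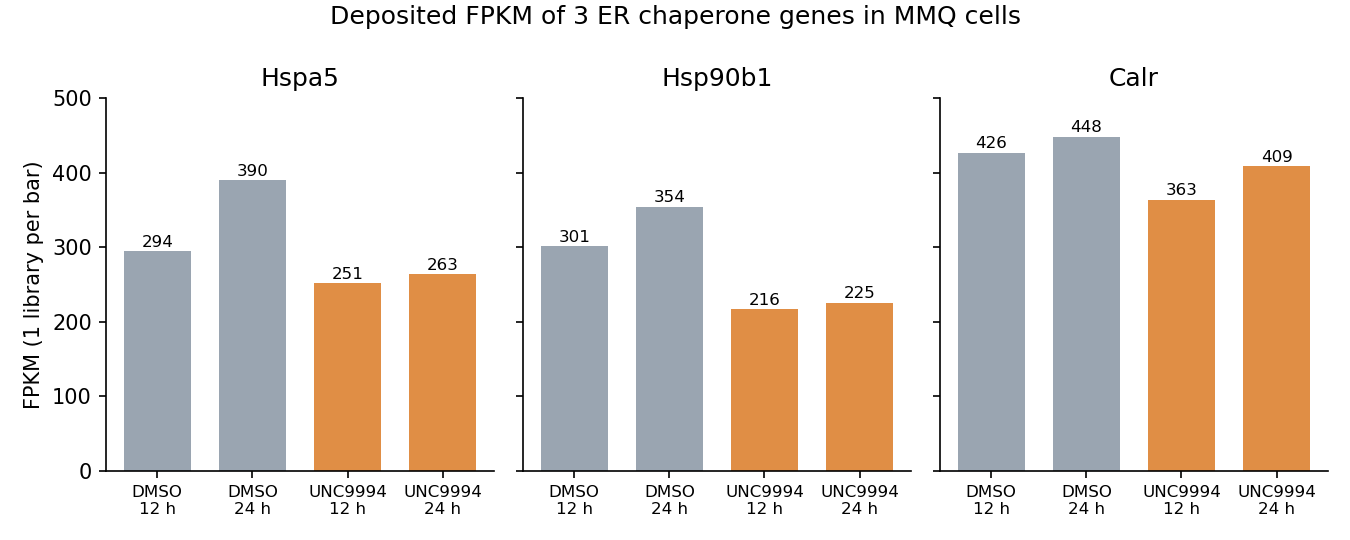
FPKM (y axis, from 0) of Hspa5, Hsp90b1 and Calr in the 4 libraries, 1 bar per library, DMSO in grey and UNC9994 in orange, with no error bars because no group had a replicate. Both UNC9994 bars are below both DMSO bars for each gene, and the gap is widest for Hsp90b1 (216 and 225 against 301 and 354 FPKM).

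All 3 genes were thus lower in both UNC9994 libraries than in both DMSO libraries, an order also found for 29.5% of all tested IDs and for 38.4% of the 784 tested IDs that averaged 100 FPKM or more. With 2 libraries against 2, an exact permutation test cannot go below a two-sided p of 0.333, so this order by itself passes no threshold. The median of the 3 log2 changes was -0.40, against 0.00019 for all tested IDs and -0.037 for those that averaged 100 FPKM or more. Of the 14056 tested IDs, 844 had a lower log2 change than Hsp90b1, 1452 a lower one than Hspa5 and 3499 a lower one than Calr. In bulk RNA, fewer cells with a high level and less RNA per cell cannot be told apart. Libraries of different treatment may also differ by culture or preparation, which cannot be told apart from UNC9994 here.

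The responses at the single times have no replicate and no test. With a bound of 0.3 on the log2 ratio, set after the values had been seen, 1 of the 3 genes (Hsp90b1) was lower with UNC9994 at 12 h, as were 18.6% of tested IDs. At 24 h 2 of the 3 were lower by this bound, Hspa5 and Hsp90b1, as were 15.5% of tested IDs. The distance from vehicle was larger at 24 h for Hspa5 (a log2 ratio of -0.23 at 12 h and -0.57 at 24 h) and Hsp90b1 (-0.48 and -0.65), and larger at 12 h for Calr (-0.23 and -0.13). From 12 h to 24 h, Hspa5 moved more in DMSO (294 to 390 FPKM) than in UNC9994 (251 to 263 FPKM). So did Hsp90b1 (301 to 354 FPKM in DMSO, 216 to 225 FPKM in UNC9994). Calr moved more in UNC9994 (363 to 409 FPKM) than in DMSO (426 to 448 FPKM). The log2 ratio at 24 h minus that at 12 h was -0.34 for Hspa5, -0.18 for Hsp90b1 and 0.10 for Calr, differences that use every degree of freedom of the 4 libraries and could not be tested.

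**Figure D3:**
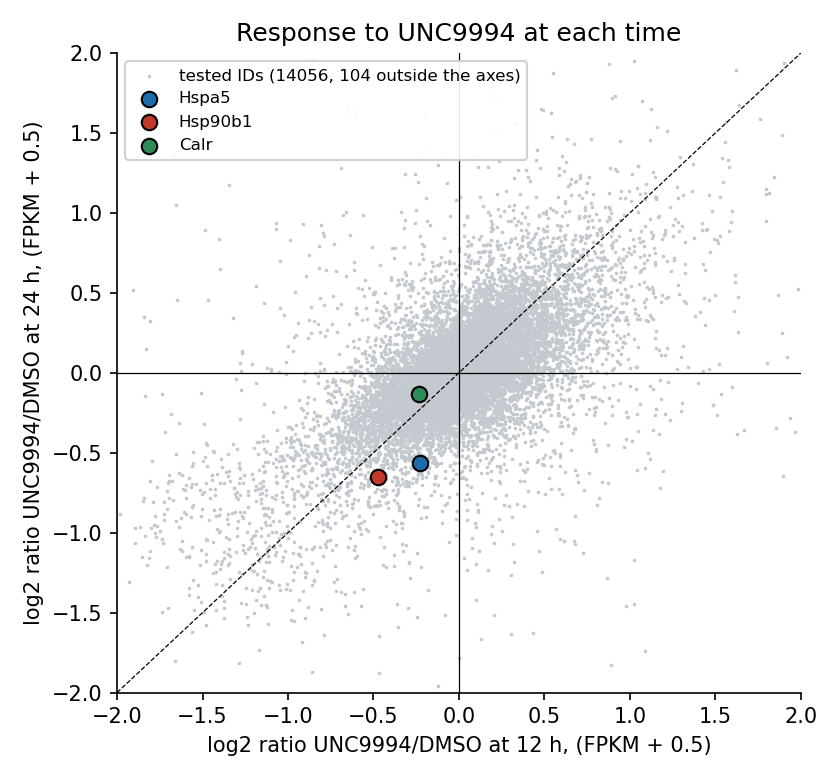
Log2 ratio of UNC9994 to DMSO, from FPKM + 0.5, at 12 h (x axis) and at 24 h (y axis) for the 14056 tested IDs (grey, 104 of them outside the axes) and the 3 chaperone genes (coloured), with the dashed line marking equal ratios. All 3 genes lie below 0 at both times, Hspa5 and Hsp90b1 below the dashed line and Calr above it.

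The vehicle libraries themselves differed. In DMSO the Hspa5 level was 1.33-fold higher at 24 h than at 12 h (95% counting interval 1.30 to 1.35), and 6.42% of tested IDs had a higher ratio. Hsp90b1 was 1.18-fold higher (1.15 to 1.20) and Calr 1.05-fold higher (1.03 to 1.07). In UNC9994 the same step gave 1.05-fold for Hspa5 (1.02 to 1.07), 1.04-fold for Hsp90b1 (1.02 to 1.06) and 1.13-fold for Calr (1.10 to 1.15). By the bound of 0.3 on the log2 ratio, 1 of the 3 genes (Hspa5) was higher at 24 h in DMSO, as were 10.6% of tested IDs, and 0 of the 3 were in UNC9994, where 10.8% of tested IDs were.

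All 3 genes were higher at 24 h than at 12 h in both treatments, as were 26.7% of tested IDs. The difference common to both treatments was 0.24 ± 0.12 for Hspa5 on the log2(FPKM + 0.5) scale (SE, 4 libraries; limma adjusted p = 0.72). It was 0.15 ± 0.10 for Hsp90b1 (limma adjusted p = 0.79) and 0.12 ± 0.10 for Calr (limma adjusted p = 0.84). By limma, 0 of the 14056 IDs (0%) passed the threshold for time, and limma-voom called 0 as well. Other fits called 2 with a pseudocount of 0.1, 5 with robust moderation and 23 when a CPM of 5 was required. An unadjusted limma p under 0.05 was reached by 1041 of the 14056 IDs, and by 0 of these 3.

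The proportions of the 3 transcripts shifted between libraries. Hsp90b1 and Hspa5 were near parity in DMSO at 12 h, where the ratio of their FPKM was 1.02. The ratio was 0.908 in DMSO at 24 h, 0.859 in UNC9994 at 12 h and 0.854 in UNC9994 at 24 h. Hsp90b1 was thus the second most abundant of the 3 in DMSO at 12 h and the third in the other libraries.

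Calr stood at 1.45 times the level of Hspa5 in DMSO at 12 h, 1.44 times in UNC9994 at 12 h and 1.55 times in UNC9994 at 24 h, and at 1.15 times in DMSO at 24 h, the library with the highest Hspa5. Relative to Hsp90b1, Calr was at 1.42 and 1.26 times its level in DMSO at 12 h and 24 h and at 1.68 and 1.82 times in UNC9994. The DMSO and UNC9994 values did not overlap for Hsp90b1 to Hspa5 and for Calr to Hsp90b1, and overlapped for Calr to Hspa5. The ratios without overlap both contain Hsp90b1, so they are not separate results. How often the values of other gene pairs do not overlap was not measured, so the lack of overlap only describes 4 libraries. These proportions are not affected by how a library was scaled, and they were not tested. Together the 3 genes took 0.252% of recovered reads in DMSO at 12 h and 0.302% in DMSO at 24 h, against 0.210% and 0.219% in UNC9994 at 12 h and 24 h.

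**Figure D4:**
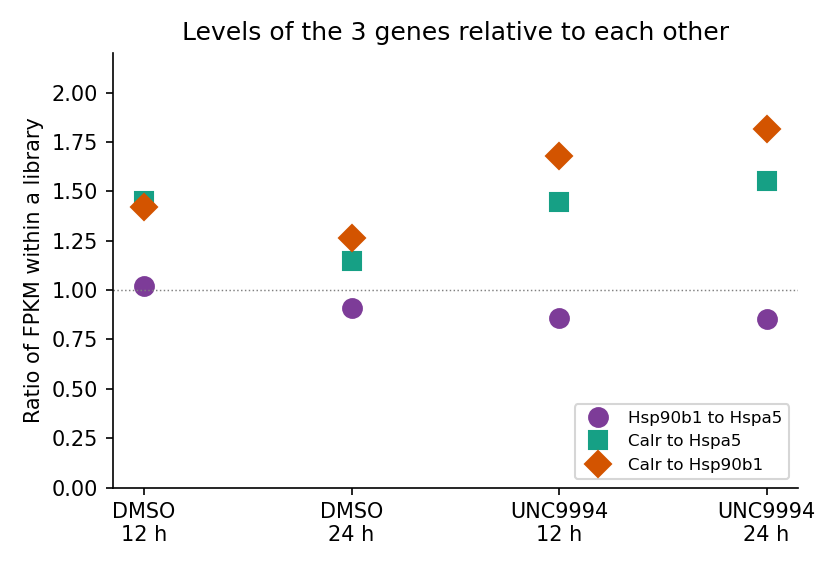
Ratio of FPKM between pairs of the 3 genes within each of the 4 libraries (y axis, from 0; the dotted line marks equal levels), 1 point per library. Calr to Hsp90b1 is 1.26 to 1.42 in DMSO and 1.68 to 1.82 in UNC9994, and Calr to Hspa5 is lowest in DMSO at 24 h (1.15).

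Likeness of pattern was measured as the Euclidean distance between the 4 log2(FPKM + 0.5) values of IDs, each set minus its own mean, against the 3017 other IDs with a mean of at least 5 on this scale. By this distance Hsp90b1 was the 20th closest ID to Hspa5 (0.208, against a median of 0.516 over all IDs), and Hspa5 was the 33rd closest to Hsp90b1. Calr lay farther from them by this distance, which counts the size of a change as well as its shape. It was the 183rd closest to Hspa5 and the 460th closest to Hsp90b1. Seen from Calr, Hspa5 was the 1869th closest ID (0.328) and Hsp90b1 the 2285th (0.408), both farther than the median of 0.281. Other IDs lay closer to each of the pair than its partner did. The closest ID to Hspa5 was ENSRNOG00000010944 (distance 0.0444), which the files do not name, with 55.8 and 75.2 FPKM in DMSO and 49.3 and 51.9 FPKM in UNC9994 at 12 h and 24 h. The closest to Hsp90b1 was ENSRNOG00000005362 (distance 0.0749, median 0.590), with 72.6 and 84.3 FPKM in DMSO and 53.8 and 57.1 FPKM in UNC9994. With 4 libraries, such a ranking is a description and says nothing of shared control.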

How the data were processed

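The values are FPKM made and deposited by the authors, per the file headers. One table is named for raw counts, which its values contradict. CASAVA, TopHat2 version 2.0.7, Bowtie2, HTSeq and build Rnor_6.0 were used, per the submitters' processing notes. Their roles, strand handling and the treatment of reads shared with pseudogene copies are not stated in any source at hand. Of 35042 rows, 1209 exact repeats and 1 malformed ID were removed. The single-sample tables held the same values.

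Whole reads were recovered by finding, for each ID, the shortest gene model length for which each of its 4 values became a whole number of reads (tolerance 0.001 reads). This gave whole reads for all 16009 IDs above 0 in every library, and for 0 of 500 IDs disturbed by up to 1%. Whether an ID's 4 numbers should all be multiplied by a common factor was not tested. The library sizes were inferred from the same FPKM values. Several multiples of them gave whole reads, and the multiple was kept whose recovered total lay nearest the library size. The read numbers and counting intervals rest on this choice, and the closeness of recovered reads to library size partly follows from it. The intervals on ratios are exact binomial (95%) and cover counting error only.

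The test was limma 3.58.1 (under R 4.3.3), two-sided, on log2(FPKM + 0.5), with terms for time and treatment and a variance trend. An ID was tested if 2 or more libraries held 10 or more of its reads, with Benjamini-Hochberg adjustment over all of them at 0.05. It has 1 residual and 4.48 prior degrees of freedom. The error term joins an ID's own disagreement between the 2 times to a variance trend over all tested IDs, which has the larger weight. A p-value here thus rests largely on other IDs and does not reflect the spread of replicate cultures. The genes, lists and tests were chosen with earlier results of these data known. Named genes were the 3 members and the IDs closest in pattern, at most 2 that were lower. For the ER, secretory and cell type lists (10 lists, 154 genes), the RefSeq gene table gave 47357 genes and an Ensembl ID for 0 of them. No list gene other than the 3 members could therefore be tied to an ID, and the expression of the list genes was not analysed. By symbol, the lists were used only in the promoter search. Promoter sequences are from RefSeq (GRCr8), matched by symbol for all 3 genes, and the motifs were searched after the expression values were seen. Alternatives are given in the closing section.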

Additional observations from a re-analysis of the deposited data

How the results depend on the processing

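Of 110 alternative values of the results above, 85 stayed on their side of the threshold, within their counting interval or within 1.5 times the reported count, 6 lost a call, 19 moved further and 0 reversed. Most settings barely change a gene with this many reads, and few could reverse an order held by all 4 libraries. The tally therefore does not measure robustness. Hsp90b1 (log2 change -0.564) lost its call with no filter on low values (-0.564, adjusted p = 0.15) and with no variance trend (-0.564, adjusted p = 0.09). Leaving out 1 library each, with no time term and with the remaining single library taken to vary as the other treatment does, gave -0.682 to -0.447, with 0 of 4 fits past the threshold. The same 4 fits gave -0.598 to -0.192 for Hspa5 and -0.266 to -0.096 for Calr. The number of IDs changed with UNC9994 (1204) was 1979 when 2 libraries had to reach a CPM of 5, 0 without the filter, 0 without the variance trend, and 86 to 782 with 1 library left out. For time (0) it was 2 with a pseudocount of 0.1, 23 when a CPM of 5 was required and 5 with robust moderation. The causes were not tested.

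With total-read scaling, the ratio of UNC9994 to DMSO at 12 h was 0.890 instead of 0.855 for Hspa5, 0.749 instead of 0.719 for Hsp90b1 and 0.887 instead of 0.852 for Calr. Recovered reads were 95.6% of the library size inferred from the FPKM for UNC9994 12 h, against 99.6% for DMSO 12 h. They were 98.2% for DMSO 24 h and 98.6% for UNC9994 24 h. With the vehicle library of the other time, the ratio at 12 h was 0.645 for Hspa5, 0.611 for Hsp90b1 and 0.811 for Calr. At 24 h it was then 0.895 instead of 0.676 for Hspa5, 0.748 instead of 0.635 for Hsp90b1 and 0.959 instead of 0.913 for Calr. These pairs also hold the difference between times.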
